A study of Mus musculus with 2 samples.

Results

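The regions described here are the accessible sites at promoters of long noncoding RNA (lncRNA) genes in mouse megakaryocyte-erythroid progenitors (MEP), the common precursors of red cells and of the megakaryocytes that shed platelets. They were chosen by position alone. Peaks of the authors' conservative list, which rests on both libraries together, were merged where they overlapped or touched. Merged regions on the autosomes, X and Y were kept when they lay more than 1 kb from every protein-coding transcription start site (TSS) and within 1 kb of the TSS of a GENCODE gene of the type lincRNA, antisense, processed_transcript, bidirectional_promoter_lncRNA or lncRNA. This left 1105 of 46200 regions, or 2.39%. The other regions were 13422 promoters of protein-coding genes and 31673 distal regions, which lay more than 1 kb from either kind of TSS. A protein-coding TSS here is that of a protein-coding transcript of a protein-coding gene. With the TSS of all transcripts of such genes, 1061 regions met the rule.

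The assay was ATAC-seq, in which the Tn5 transposase cuts and tags DNA that is not wrapped tightly in nucleosomes. There is 1 group of 2 libraries, each from 50000 primary MEP. The mice were C57BL/6J males, 5 to 6 weeks old, and the labels name no treatment or genetic change. The labels call them biological replicates 1 and 2 and give both the same donor entry, so separate animals are not stated. Read counts were not used and the depth is unknown. The comparisons below are between classes of region within these libraries, and as regions are not replicates no test was run on them. The label MEP was checked on 18 marker genes. All 6 erythroid markers (Gata1, Klf1, Epor, Hbb-bs, Hba-a1 and Tfrc) had a promoter region in the IDR-thresholded list of either library, a short list of peaks whose rank repeats between random splits of that library. Of 5 megakaryocyte markers only Gp1ba had one there, while 4 of 5 had one in the longer pseudoreplicated lists of both libraries. Kit had one and Gata2 had none, and 0 of 5 markers of other cell types (Mpo, Elane, Csf1r, Cd3e and Alb) had one in any of these lists.

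Long noncoding RNAs are transcribed by RNA polymerase II, and most are capped and spliced like messenger RNA but encode no known protein. Some act as RNA, for example in silencing an X chromosome or an imprinted gene or in building nuclear bodies. Others serve as the primary transcript of small nucleolar RNAs or microRNAs, and for many no function is known. In blood cells a number of lncRNA genes start at or beside enhancers bound by lineage transcription factors such as GATA1.

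The following sequences show the kinds of promoter region that recur in the results. All are from the RefSeq copy of the mm10 assembly (GRCm38.p6), each written 5′ to 3′ on the strand named. The first set shows CpG content in the 50 bp to either side of the summit, along the transcript, with each CG dinucleotide in capitals. Snhg6 (chr1:9944113-9944213, minus strand) has 8 of them, Jpx (chrX:103493411-103493511, plus strand) 13 and Snhg15 (chr11:6528746-6528846, minus strand) 15, whereas Bloodlinc (chr11:102375341-102375441, minus strand) has 1. The summit of Bloodlinc lies 1629 bp downstream of its annotated TSS, and its region does not cover that TSS.
Snhg6: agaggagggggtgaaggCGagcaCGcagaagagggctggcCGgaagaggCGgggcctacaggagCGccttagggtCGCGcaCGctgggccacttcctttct
Jpx: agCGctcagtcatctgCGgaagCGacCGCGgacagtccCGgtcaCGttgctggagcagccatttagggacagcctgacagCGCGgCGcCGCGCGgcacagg
Snhg15: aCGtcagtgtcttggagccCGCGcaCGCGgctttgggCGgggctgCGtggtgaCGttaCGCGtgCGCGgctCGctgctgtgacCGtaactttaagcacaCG
Bloodlinc: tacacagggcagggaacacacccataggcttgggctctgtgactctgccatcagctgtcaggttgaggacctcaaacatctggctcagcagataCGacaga

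The second set shows the 100 bp to either side of the summits of lncRNA promoter regions beside blood genes, with matches to the GATA motif on either strand in capitals. Gm43904 (chr6:87775974-87776174, plus strand) lies beside Gp9, Gm33619 (chr10:21186812-21187012, plus strand) beside Myb and Gm38708 (chr6:88189659-88189859, minus strand) beside Gata2. The summit of Gm38708 lies 922 bp downstream of its annotated TSS.
Gm43904: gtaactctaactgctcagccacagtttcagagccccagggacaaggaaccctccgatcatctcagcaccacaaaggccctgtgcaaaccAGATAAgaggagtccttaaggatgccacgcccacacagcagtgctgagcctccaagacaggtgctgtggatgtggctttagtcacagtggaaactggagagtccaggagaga
Gm33619: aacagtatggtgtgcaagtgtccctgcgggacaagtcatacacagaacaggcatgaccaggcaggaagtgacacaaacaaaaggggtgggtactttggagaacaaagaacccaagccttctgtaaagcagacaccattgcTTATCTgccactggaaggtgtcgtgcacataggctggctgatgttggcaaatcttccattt
Gm38708: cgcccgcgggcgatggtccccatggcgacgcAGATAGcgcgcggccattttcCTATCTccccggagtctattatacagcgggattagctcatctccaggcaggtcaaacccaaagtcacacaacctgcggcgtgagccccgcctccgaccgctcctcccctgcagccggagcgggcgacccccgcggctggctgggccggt

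The third set shows lncRNA promoters with closely similar sequence, among them 4 of the 10 strongest. On chromosome 17 the 50 bp to either side of the summit of BC002059 (chr17:16951411-16951511, plus strand) were aligned without gaps to Gm5165 (chr17:17234728-17234828, plus strand) and Gm6712 (chr17:17294292-17294392, plus strand). On chromosome 13 those of E430024I08Rik (chr13:74462747-74462847, minus strand) were aligned to Gm47469 (chr13:74563905-74564005, minus strand) and Gm46430 (chr13:74617367-74617467, minus strand). Capitals mark bases that differ from BC002059 or E430024I08Rik, 6 in Gm5165, 3 in Gm6712 and 7 each in Gm47469 and Gm46430.
BC002059: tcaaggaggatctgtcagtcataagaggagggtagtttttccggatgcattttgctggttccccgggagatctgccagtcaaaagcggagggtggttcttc
Gm5165: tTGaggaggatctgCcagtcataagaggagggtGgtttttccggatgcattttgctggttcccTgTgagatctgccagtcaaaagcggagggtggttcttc
Gm6712: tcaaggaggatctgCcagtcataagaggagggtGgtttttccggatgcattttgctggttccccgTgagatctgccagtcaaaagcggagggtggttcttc
E430024I08Rik: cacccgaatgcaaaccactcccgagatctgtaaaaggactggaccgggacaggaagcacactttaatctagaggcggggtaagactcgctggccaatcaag
Gm47469: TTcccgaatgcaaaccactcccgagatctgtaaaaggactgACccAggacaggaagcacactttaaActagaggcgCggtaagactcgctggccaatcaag
Gm46430: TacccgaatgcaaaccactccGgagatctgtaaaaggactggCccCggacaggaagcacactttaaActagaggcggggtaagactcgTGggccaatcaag

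A small share of lncRNA genes had an accessible region within 1 kb of a TSS and away from protein-coding TSS. Of 7976 lncRNA genes whose TSS all lay more than 1 kb from protein-coding TSS, 951 or 11.9% had such a region (Wilson 95% interval 11.2 to 12.7, which here and below covers counting error only). Among genes of the type processed_transcript, which holds many older and named lncRNAs, the share was 24.9% (119 of 478), among antisense genes 12.7% (256 of 2013) and among lincRNA genes 10.5% (576 of 5481). LncRNA genes with a TSS within 1 kb of a protein-coding TSS had a region within 1 kb in 67.3% of cases (1222 of 1817), and protein-coding genes in 54.5% (11907 of 21853). Accessibility within 1 kb of such a shared start cannot be assigned to the lncRNA gene or to its coding neighbour. The rule left out regions within 1 kb of the coding TSS. A region within 1 kb of the lncRNA TSS alone could still be a member, as at Gm33023 and Gm12279. Of the 1817 genes 69 had a member within 1 kb of any of their TSS, which can be the shared start or another one. In the IDR-thresholded lists the 11.9% became 7.18% in replicate 1 and 7.60% in replicate 2, against 47.7% and 47.9% of protein-coding genes. The number of lncRNA promoter regions was 634 in the IDR-thresholded list of replicate 1 alone and 669 in that of replicate 2 alone.

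By nearest gene type, 640 of the 1105 regions lay at lincRNA genes, 312 at antisense genes, 152 at processed_transcript genes and 1 at a bidirectional_promoter_lncRNA gene. No region lay on Y and 25 lay on X. Most members belong to genes without a given name, as 916 of the 1105 have a symbol that starts with Gm or ends with Rik. Of 985 nearest genes 872 had 1 region, 108 had 2, 3 had 3 and 2 had 4. Pvt1, the neighbour of Myc, and D230017M19Rik had 4 each. Ptprv, 2610035D17Rik and Ftx had 3 each.

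Many of the regions, but not all, had their summit close to the annotated start. The summit, the base of highest signal in a region, lay within 1 kb of the lncRNA TSS in 974 of 1105 (88.1%) and within 200 bp in 473 (42.8%, Wilson 95% interval 39.9 to 45.7). At protein-coding promoters the shares were 95.5% and 69.5%. The median distance was 308 bp at lncRNA promoters and 80 bp at protein-coding promoters. Of the 473 close summits 359 (75.9%) lay upstream of the TSS, 112 downstream and 2 on its base. The region itself covered the TSS in 585 cases (52.9%). Regions of processed_transcript genes had a median distance of 135 bp, those of lincRNA genes 317.5 bp and those of antisense genes 349 bp.

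**Figure D1:**
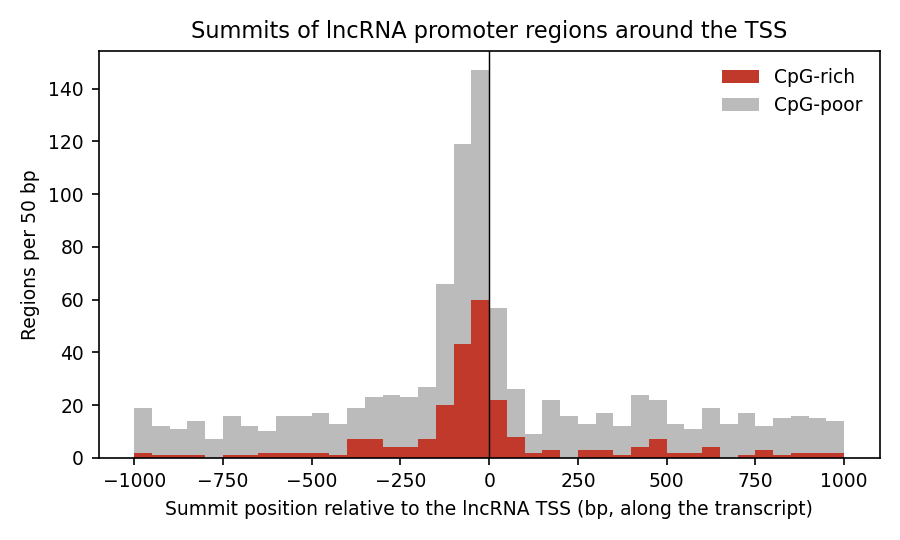
Position of the summit of lncRNA promoter regions relative to the nearest lncRNA TSS, in bp along the transcript, for the 974 summits within 1 kb. Bars count regions per 50 bp, stacked with CpG-rich regions (red) at the base and CpG-poor regions (grey) above, and the tallest bars stand just upstream of the TSS, with 359 of the 974 summits within 200 bp upstream and CpG-poor regions on both sides out to 1 kb.

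In CpG content the lncRNA promoters lay between protein-coding promoters and distal regions. Most vertebrate promoters of broadly used genes lie in CpG islands, which stay unmethylated, while tissue-restricted promoters and enhancers often have few CpG. The ratio of observed to expected CpG within 100 bp of the summit had a median of 0.374 at lncRNA promoters, 0.754 at protein-coding promoters and 0.223 at distal regions. Summits with a ratio of at least 0.6 and at least 50% G+C were called CpG-rich. That was true of 253 lncRNA promoters (22.9%, Wilson 95% interval 20.5 to 25.5), where 23.3% of all conservative regions were CpG-rich, so the share was near that of the list as a whole. Within the list it was 67.2% at protein-coding promoters and 4.68% at distal regions. LncRNA genes of the type processed_transcript had 36.8% CpG-rich regions, lincRNA genes 22.2% and antisense genes 17.6%.

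**Figure D2:**
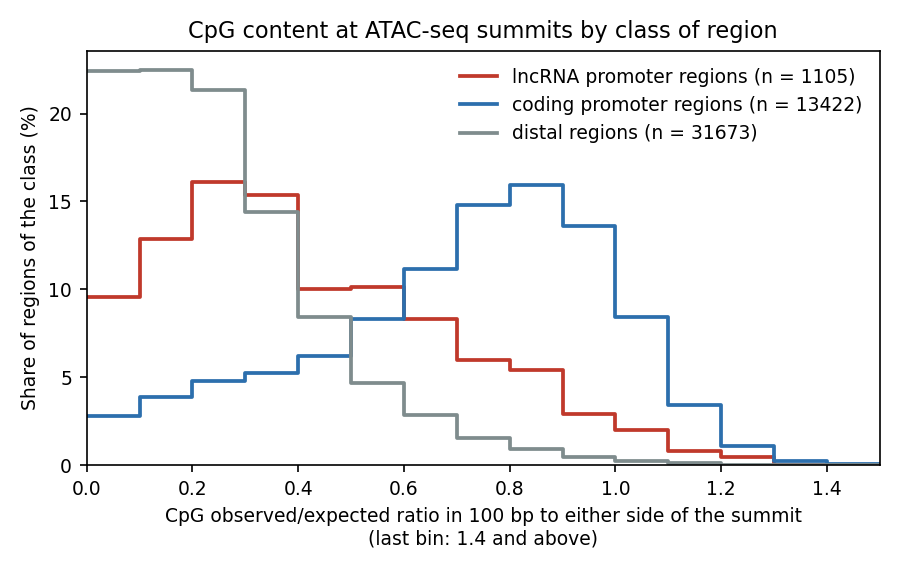
Share of regions (vertical axis, %) by ratio of observed to expected CpG within 100 bp of the summit (horizontal axis, bins of 0.1), for lncRNA promoters, protein-coding promoters and distal regions. The lncRNA promoters, with a median of 0.374, lie between protein-coding promoters at 0.754 and distal regions at 0.223.

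The CpG-rich and CpG-poor members differed in the other measures too. The 253 CpG-rich members had a median width of 673 bp, a median pooled fold of 7.15 and a median summit distance of 90 bp, with 65.2% of summits within 200 bp of the TSS. The 852 CpG-poor members had a median width of 547 bp, a median pooled fold of 6.23 and a median distance of 397.5 bp, with 36.2% within 200 bp. The fold is the authors' value per peak, read as enrichment over local background, and it ranks peaks within a list only. In replicate 1 the median fold was 6.52 in CpG-rich and 5.67 in CpG-poor members, and in replicate 2 it was 6.97 and 6.19, so the order was the same in each library. Of CpG-rich members 207 (81.8%) were intergenic with respect to protein-coding genes, and of CpG-poor members 612 (71.8%).

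Over all members the pooled fold had a median of 6.38, against 7.53 at protein-coding promoters and 6.36 at distal regions. Per library the median of the members was 5.83 in replicate 1 and 6.30 in replicate 2, with a mean of 6.06 ± 0.34 (SD, n = 2). Protein-coding promoters had 7.07 and 7.47 and distal regions 5.69 and 6.30, so that lncRNA promoters lay below protein-coding promoters in both libraries and level with distal regions in replicate 2. The members were 575 bp wide in the median, protein-coding promoters 806 bp and distal regions 470 bp. Several summits were called in 52.9% of lncRNA promoters, 68.5% of protein-coding promoters and 37.1% of distal regions.

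LncRNA promoters recurred between the libraries about as often as accessible regions in general. All these regions come from a list that rests on the same libraries, so some agreement was built in for each class. The IDR-thresholded list of replicate 1 overlapped 622 members (56.3%), where it overlapped 55.8% of all conservative regions, and that of replicate 2 overlapped 652 (59.0%), where it overlapped 59.2% of all. Both lists held 537 members (48.6%, Wilson 95% interval 45.7 to 51.5), where both held 48.6% of all conservative regions, so the share was that of the list as a whole. Protein-coding promoters had 72.4% in both and distal regions 38.5%. CpG-rich lncRNA promoters had 66.0% in both, CpG-rich protein-coding promoters 80.6% and CpG-rich distal regions 53.8%. The shares were 43.4%, 55.7% and 37.8% when CpG-poor. Regions were also split into 5 equal groups by the pooled fold of all conservative regions. From the lowest to the highest group 8.46%, 25.9%, 45.1%, 79.7% and 96.3% of lncRNA promoters were in both lists. Protein-coding promoters had 14.2%, 50.1%, 76.6%, 93.1% and 99.3%, and distal regions 5.91%, 15.8%, 33.0%, 64.2% and 92.9%. In each of these groups the lncRNA promoters lay between the other classes, and the groups were not matched on width.

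In the longer pseudoreplicated lists 1030 members had a region in both libraries, 18 in replicate 1 only, 44 in replicate 2 only and 13 in neither, where 92.6% of all conservative regions had one in both. Over the 1030 the Spearman correlation of the folds was 0.920. It is a description across regions picked from a list that rests on these same libraries. The fold of replicate 2 was the higher in 736 of them (71.5%), and in 71.7% of all regions. The strongest members of replicate 1 without a region in the longer list of replicate 2 were those of Slfn5os (fold 5.88), Gm12796 (5.42) and Gm32618 (5.14). Those of replicate 2 without one in replicate 1 were Gm38293 (7.61), Gm831 (7.09) and AC163221.1 (6.83).

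**Figure D3:**
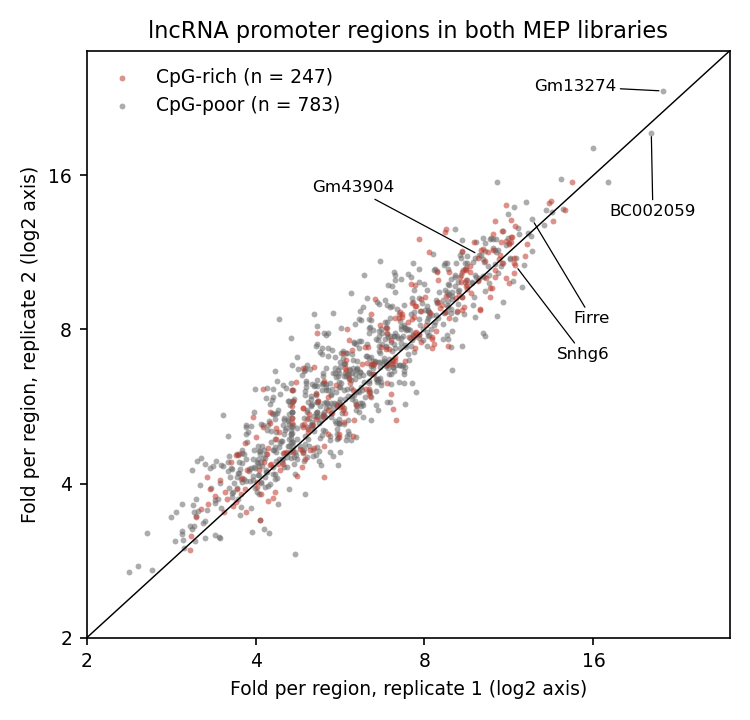
Fold per lncRNA promoter region in replicate 1 (horizontal) and replicate 2 (vertical), both on log2 axes, for the 1030 regions in the longer lists of both libraries, with CpG-rich regions in red, CpG-poor regions in grey and the line of equal folds. Points follow the line (Spearman 0.920) with more of them above it (71.5%), and Gm13274 and BC002059 are farthest to the upper right.

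The members held fewer GATA matches than distal regions and more than protein-coding promoters. GATA factors bind the core GATA and are central to erythroid and megakaryocyte genes. The letters GATA, with A or T before them and A or G after them, occurred on either strand within 100 bp of the summit of 417 lncRNA promoters (37.7%, Wilson 95% interval 34.9 to 40.6), where 43.4% of all conservative regions held one. The share was 17.9% at protein-coding promoters and 54.4% at distal regions. CpG-poor lncRNA promoters had 45.0%, against 36.3% of CpG-poor protein-coding promoters and 56.1% of CpG-poor distal regions. CpG-rich lncRNA promoters had 13.4%, CpG-rich protein-coding promoters 8.98% and CpG-rich distal regions 19.6%. Among CpG-poor lncRNA promoters the share was 41.6% with the summit within 200 bp of the TSS and 46.9% beyond it. By gene type it was 45.5% at antisense, 35.2% at lincRNA and 32.9% at processed_transcript genes. The GATA strings are rich in A and T. The median G+C within 100 bp of the summit was 53.7% at lncRNA promoters, 63.2% at protein-coding promoters and 50.2% at distal regions. For CpG-poor summits it was 52.2%, 54.7% and 49.8%. The part of base composition in the GATA shares was not tested.

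The ETS motif CCGGAAG, bound by the GABPA and ELF type of ETS factors, stood in 4.52% of lncRNA promoters, 14.0% of protein-coding promoters and 1.73% of distal regions, and in 5.36% of all conservative regions. Within 200 bp of the TSS 7.82% of lncRNA promoters held it, and beyond that 2.06%. The GC box GGGCGG of SP factors stood in 23.6%, 55.0% and 9.91% of the same classes and in 23.3% of all regions. The motif of CTCF, which anchors chromatin loops, stood in 9.32%, 6.31% and 10.6%, and in 9.34% of all regions. The YY1 motifs AAGATGGC and AAAATGGC stood in 1.54%, 4.53% and 2.26%, and in 2.90% of all regions. The share of lncRNA promoters rests on 17 regions, and its Wilson 95% interval of 0.963 to 2.45 includes that of distal regions. The AP-1 motifs TGACTCA and TGAGTCA stood in 6.06%, 2.54% and 5.62%, and in 4.74% of all regions. The TATA box TATAAA stood in 4.34%, 3.22% and 6.92%, and in 5.78% of all regions. Of the other motifs, NFY (CCAAT) stood in 25.2% of lncRNA promoters and 24.7% of all regions, and the E-box (CAGCTG or CATCTG) in 31.4% and 28.9%. The KLF motif stood in 14.6% and 13.9%, RUNX (TGTGGTT or TGCGGTT) in 7.60% and 7.72% and PU.1 (GAGGAAGT) in 2.62% and 2.16%. NRF1 stood in 1.63% and 2.14% and CRE (TGACGTCA) in 0.995% and 1.15%, so these 7 shares lay near those of the whole list. A match is a string of letters on either strand and not a bound site.

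**Figure D4:**
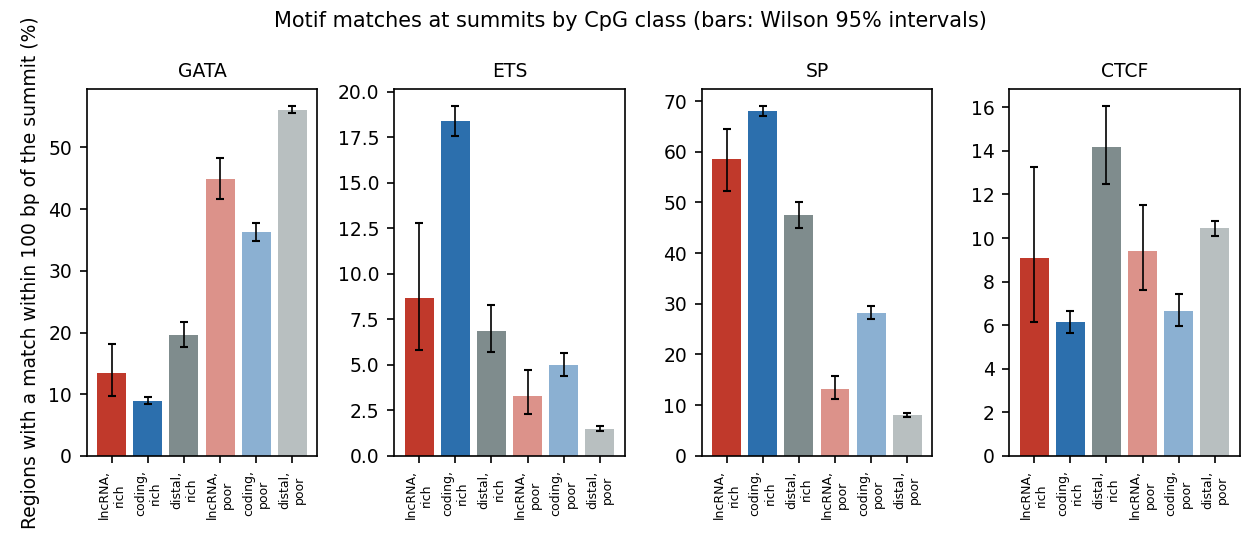
Share of regions (vertical axis, %) with a match to the GATA, ETS, SP or CTCF motif within 100 bp of the summit, for CpG-rich (rich) and CpG-poor (poor) lncRNA promoters (red), protein-coding promoters (blue) and distal regions (grey), with Wilson 95% intervals as error bars. For GATA the CpG-poor lncRNA promoters, at 45.0%, stand between CpG-poor protein-coding promoters at 36.3% and CpG-poor distal regions at 56.1%.

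Antisense genes overlap a coding gene on the other strand, and 232 of their 312 members had the summit inside a protein-coding gene. Whether this was the overlapped gene was not checked. Of the 312 antisense members 192 lay in an intron, and of the 640 lincRNA members 21. The 231 intronic members had GATA matches in 48.9% and CpG-rich summits in 10.4%, and 42.0% were in both IDR-thresholded lists. The 819 intergenic members had 34.9%, 25.3% and 50.4%. Their median pooled folds were 5.92 and 6.55. The nearest protein-coding TSS lay 1 to 5 kb from 170 members, 5 to 50 kb from 606, 50 to 200 kb from 270 and farther from 59. The median pooled fold was 5.09, 6.64, 6.55 and 7.23 in this order of distance.

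Named lncRNA genes were taken from lists of 101 symbols in 7 groups by role, of which 84 are annotated with one of the gene types used. Of the 84, 39 had a member region, where 10.4% of all lncRNA genes (1020 of 9793) had one. The lists were chosen with earlier results of these data known, so these counts only describe the chosen genes. Mirt1 and Mirt2 were moved from the microRNA hosts to the nuclear and general group after their values were seen. Another 13 had a region that was left out because a protein-coding TSS also lay within 1 kb, 5 had a region only in the longer replicated list and 27 had none. Hosts of small nucleolar RNAs, whose introns release guide RNAs for the modification of ribosomal RNA, had a member in 9 of 16 cases, and another 6 had a left-out region. Of hosts of microRNAs 8 of 10 had a member, of genes tied to X inactivation 4 of 5, of imprinted lncRNA genes 4 of 8 and of nuclear and general lncRNAs 7 of 13. Blood and immune lncRNA genes had 4 of 14 and developmental ones 3 of 18.

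The promoters of small nucleolar RNA hosts were CpG-rich and close to the TSS. Of their 10 regions 8 were CpG-rich, 8 had the summit within 200 bp of the TSS, 8 were in both IDR-thresholded lists and 1 held a GATA match. Among all conservative regions 23.3% were CpG-rich, 48.6% were in both lists and 43.4% held a GATA match. Among all members 42.8% had the summit within 200 bp. Dancr, which also restrains differentiation in human skin progenitors, had folds of 13.0 and 12.8 in replicates 1 and 2 (chr5:74092486-74093569). Snhg6 had 11.6 and 10.7 (chr1:9943730-9944708), with the sequence shown above. Epb41l4aos had 8.85 and 8.42, and Snhg15 had 7.72 and 8.91. The libraries gave the same picture for these genes, with Dancr and Snhg6 the highest in each. Snhg5 had 7.09 and 6.96, Snhg17 7.08 and 7.07, Snhg8 6.40 and 5.93, and Snhg20 4.36 and 4.89. Snhg12 had 5.71 and 5.68 at its TSS, and a weaker region beside it was called in the longer list of replicate 2 only, with 3.72.

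The microRNA hosts spanned a wide range. Mir670hg was highest, with folds of 11.0 and 12.5 (chr2:94177930-94179295). The Dleu2 gene, host of the cluster of miR-15a and miR-16-1, had 3 regions, the highest at 7.89 and 7.55, shared with a TSS of Gm27017. Mir22hg had 7.25 and 7.52 at its TSS, and 4.16 and 4.49 at a second region upstream. Mir17hg, host of a cluster that promotes proliferation, had 4.24 and 4.35, and Mir142hg, whose microRNA marks blood cells, had 4.14 and 3.26. Mir155hg, induced in activated immune cells, had 3.93 and 3.59 and was in neither IDR-thresholded list. Mir99ahg had 4.48 and 5.21 and Mir9-3hg, of a neural microRNA, 3.79 and 4.10, also in neither list. Of the 11 regions 6 were CpG-rich, where 23.3% of all conservative regions were. In both IDR-thresholded lists were 5 of the 11, near the 48.6% of all conservative regions.

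Genes tied to X inactivation were accessible in these male cells. Firre, an X-linked gene whose RNA organises nuclear contacts, had folds of 12.4 and 13.1 (chrX:50634907-50635593). Ftx and Jpx, which act on Xist, had 10.04 and 8.79 at the strongest of the 3 Ftx regions and 8.45 and 9.05 at Jpx (chrX:103492973-103494056). Tsix, the antisense repressor of Xist, had 6.85 and 7.88. The other Ftx regions had 7.65 and 8.44, and 4.02 and 4.02. Of these 6 regions 5 were CpG-rich, all 6 had the summit within 200 bp of a TSS, 5 were in both IDR-thresholded lists and 0 held a GATA match. The shares of all conservative regions were 23.3% CpG-rich, 48.6% in both lists and 43.4% with a GATA match. A summit within 200 bp was found in 42.8% of all members. Xist itself, which is transcribed from the inactive X, had no region in the conservative or the replicated list.

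Of the imprinted lncRNA genes, Kcnq1ot1, the antisense RNA that silences its domain on the paternal chromosome, had folds of 10.5 and 12.005 (chr7:143295937-143297002). Airn, which overlaps and silences Igf2r, had a region at its TSS inside an Igf2r intron with 4.33 and 4.72. Another region, at a more distant annotated Airn TSS, had 9.31 and 9.25 and held a GATA match. Meg3 had 6.84 and 7.31, with the summit 770 bp downstream of the TSS, and Nespas, antisense at the Gnas locus, had 4.89 and 4.47. Meg3 and Nespas were in the IDR-thresholded list of replicate 1 and not in that of replicate 2.

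Among the nuclear and general lncRNAs, Neat1 and Malat1 had folds below the members' medians in both libraries. Neat1, the scaffold of paraspeckles, had 2 regions, with folds of 2.97 and 3.11 at the TSS and 2.38 and 2.69 downstream. The downstream region had a pooled fold of 2.40, which only 1 of the 1105 members undercut. Neither Neat1 region was in an IDR-thresholded list. Malat1, a nuclear speckle RNA, had 3.08 and 4.25 at the TSS and 5.31 and 4.12 at a region centred at −929 bp. The region at −929 bp was in both IDR-thresholded lists, and that at the TSS only in the list of replicate 2. Higher values were seen at Dubr, with 9.15 and 8.70, and at 2900097C17Rik, with 7.24 and 8.66. Lncpint, a target of p53, had 3 regions with folds of 3.32 to 4.22 in replicate 1 and 3.71 to 4.29 in replicate 2, none in an IDR-thresholded list. Mirt1 had 3.98 and 4.31. Over the 14 regions of this group the median fold was 4.18 in replicate 1 and 4.27 in replicate 2, below the members' medians of 5.83 and 6.30.

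At Pvt1, downstream of the Myc oncogene, 4 regions lay within 1 kb of annotated TSS spread over the gene. They were 50217 to 235369 bp from the nearest protein-coding TSS, that of Myc. The one closest to Myc was CpG-rich with folds of 4.14 and 4.40. The next, at 111277 bp, had 6.08 and 6.08. The pair at 233361 and 235369 bp had 6.21 and 6.53, and 4.22 and 3.21. The 3 regions farther from Myc were CpG-poor and each held a GATA match. Those at 111277 and 233361 bp were in both IDR-thresholded lists.

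Of the blood and immune genes, Lockd, whose start lies in an enhancer of Cdkn1b studied in mouse erythroid cells, had folds of 4.01 and 4.92 (chr6:134928224-134929414) in a CpG-rich region without a GATA match. Ptgs2os2, known as lincRNA-Cox2 and induced in activated macrophages, had 5.82 and 4.94. Gm14005 had 4.34 and 5.34 and Gm15915 had 5.61 and 4.34. Ptgs2os2 and Gm14005 were in neither IDR-thresholded list, as were 33.6% of all conservative regions. A summit within 200 bp of the TSS was found in 0 of the 4, where 42.8% of all members had one. Of developmental genes, Hoxd3os1 in the Hoxd cluster had 7.81 and 12.04, the widest gap between the libraries among the listed genes. Dnm3os, host of miR-199a-2 and miR-214, had 10.2 and 7.78, and Bvht, known from heart development, had 5.26 and 6.09. The Dnm3os summit lay 827 bp downstream of its TSS and the Bvht summit at −1330 bp, and neither region covered the TSS.

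**Figure D5:**
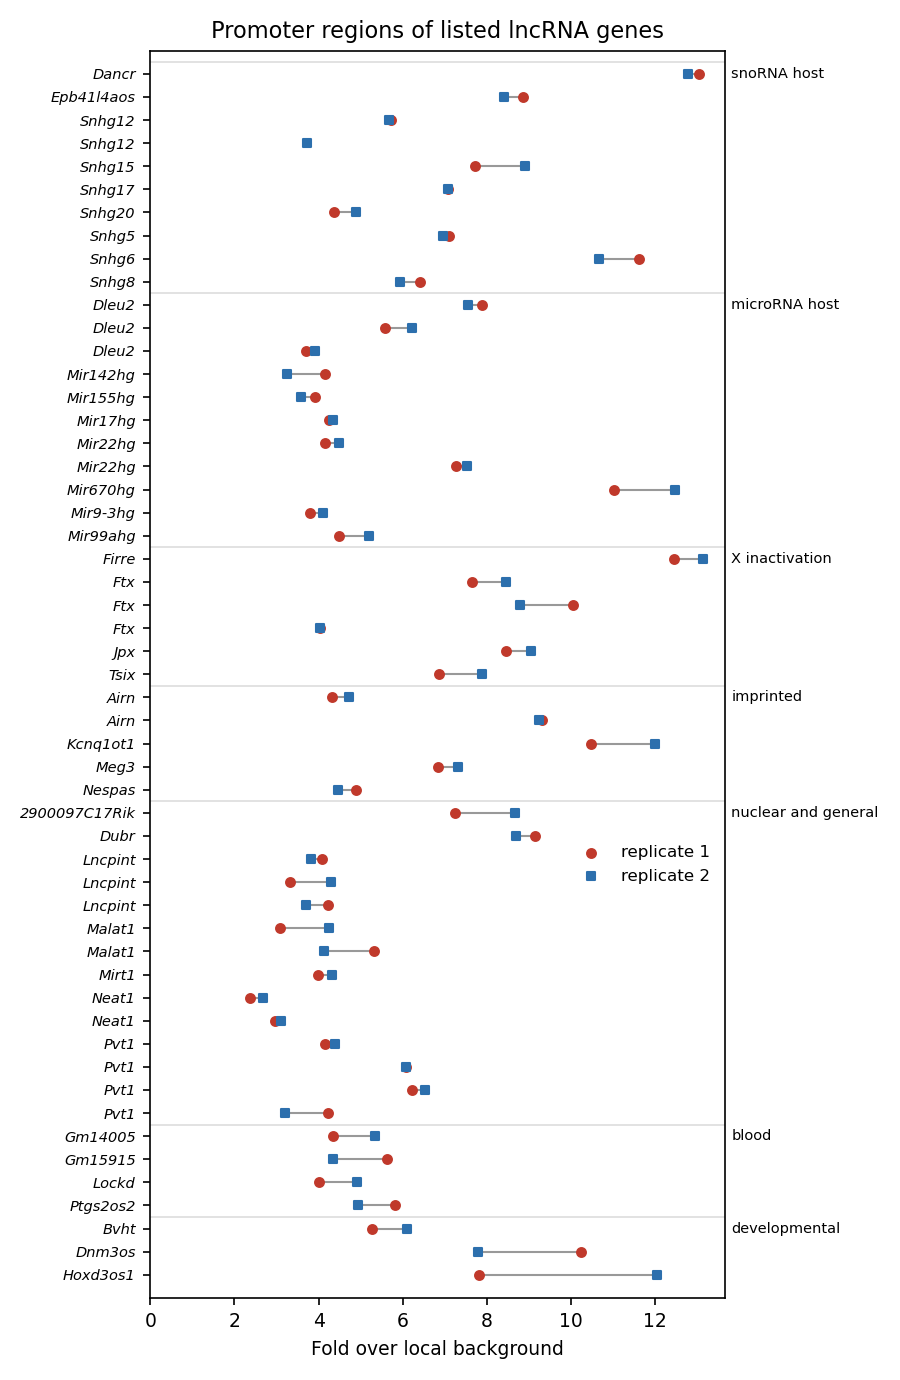
Fold of each member region of the listed lncRNA genes (horizontal axis) in replicate 1 (red circles) and replicate 2 (blue squares), joined by a line, by group of genes. Dancr and Firre stand near 13 in both libraries, the Neat1 regions stand lowest, and Hoxd3os1 has the widest gap, 7.81 and 12.04.

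Several lncRNA promoters lay beside genes that define the blood lineages. A list of 100 erythroid, megakaryocyte and haematopoietic factor genes was searched for members whose nearest protein-coding TSS within 50 kb was theirs. This held for 10 members at 9 genes, or 9% of the list, where 3.04% of all protein-coding genes (665 of 21853) had such a member. The genes came from the haematopoietic factors (6 of 46), the megakaryocyte genes (2 of 22) and the erythroid genes (1 of 32), and the genes of the list were chosen with results of these data known.

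The strongest was Gm43904, 1723 bp from the TSS of Gp9, which encodes a subunit of the platelet receptor for von Willebrand factor. It had folds of 9.99 and 11.2 (chr6:87775797-87776349), whereas Gp9 itself had a promoter region in neither IDR-thresholded list and folds of 2.91 and 3.25 in the longer lists. Its summit lay at −69 bp from the Gm43904 TSS, beside the GATA match shown above, and its CpG ratio was 0.135. Gm43904 points the same way as Gp9 and starts upstream of it.

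Bloodlinc, an erythroid lncRNA gene upstream of Slc4a1, the gene for the red cell anion exchanger, had folds of 8.31 and 10.4 (chr11:102375134-102376313). The summit lay 1629 bp downstream of the annotated TSS and the region's edge 707 bp from it, so that it is a member by its edge only. It had no GATA match within 100 bp of the summit and a CpG ratio of 0.0668. Slc4a1 lies 9854 bp from the region.

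Myb, a transcription factor gene of early progenitors, had a member on either side. Gm33619, upstream, had folds of 7.95 and 7.62 (chr10:21186728-21187277), was in both IDR-thresholded lists and held the GATA match shown above. Gm26577, downstream of the Myb TSS on the other strand, had 5.46 and 5.74 and was in neither list. Gm38708 at Gata2, a GATA factor of progenitors, had 4.64 and 5.68 (chr6:88189524-88189994) and held 2 GATA matches in a sequence with a CpG ratio of 0.973. The summit of this region lay 922 bp downstream of the Gm38708 TSS and its edge 687 bp from that TSS. Gata2 itself had no region at its TSS in the conservative list or in the lists of either library.

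Near Cd34, a surface marker of progenitors, A330023F24Rik had folds of 7.67 and 7.72 in a CpG-rich region in both IDR-thresholded lists. It shared this promoter with Gm16897. Gm16140, antisense to the stem cell factor gene Meis1, had 5.74 and 5.27, with the summit at −1139 bp from its TSS. The regions of Gm28809 at Cd9 (4.07 and 4.63), 4930597A21Rik at Ebf1 (4.04 and 4.73) and Gm45479 at Irf2 (3.75 and 4.27) were in neither IDR-thresholded list. Of the 10 members 6 held a GATA match, where 37.7% of all members and 43.4% of all conservative regions held one. In neither list were 4 of the 10, the fourth being Gm26577, where this held for 33.3% of all members and 33.6% of all conservative regions, so the share was near that of the whole list.

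The strongest lncRNA promoters were mostly genes of unknown role. Ranked by the mean rank of their fold in both libraries, the first was Gm13274, with 21.3 and 23.4 (chr4:88757562-88757846), a narrow region of 285 bp whose nearest protein-coding TSS is that of Gm13283. BC002059 followed with 20.3 and 19.4 (chr17:16951047-16951676), and Gm5165 with 16.0 and 18.1 (chr17:17234340-17235014). BB218582 had 14.6 and 15.5 and Gm6712 had 17.001 and 15.5. The other 5 were E430024I08Rik, 5730405O15Rik, A430073D23Rik, Gm10010 and Gm37494, with folds of 13.3 to 14.2 in replicate 1 and 13.7 to 15.7 in replicate 2. The members' medians were 5.83 and 6.30. All 10 were intergenic, in both IDR-thresholded lists and had the summit upstream of the TSS, at −126 to −27 bp. For 4 of the 10 the nearest protein-coding gene was a zinc finger gene of the Zfp, Zscan or Zkscan kind (Zfp960, Zfp97, Zfp825 and Zfp619), where that held for 37 of the 1105 members (3.35%). Among the top 50 members it held for 7. BC002059 and Gm5165, beside Zfp960 and Zfp97, are closely similar in sequence, so the 4 are not separate cases.

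Of these 10, 6 had a near-copy elsewhere among the accessible regions, as shown above for BC002059, Gm5165, Gm6712 and E430024I08Rik. A near-copy was an alignment of at least 150 bp of the sequence within 100 bp of the summit, with at least 80% identity to another conservative region. Of all members 44 had one (3.98%, Wilson 95% interval 2.98 to 5.30), where 1.95% of all conservative regions had one, and for 18 of them a partner was another lncRNA promoter. The median identity was 95.3%. Members with a near-copy had a median pooled fold of 9.49 and 65.9% were in both IDR-thresholded lists, and members without one had 6.32 and 47.9%. How the authors placed reads that map to several copies is not given in the sources used here, so the folds of these 44 are uncertain, and the part of read placement in them was not tested. Gm47469 had 12.2 and 14.2 and Gm46430 had 11.8 and 12.6.

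The widest members were those of Gm49024 (2226 bp, folds of 7.04 and 6.75), Gm6410 (1994 bp, 7.38 and 6.94) and G730013B05Rik (1822 bp, 6.54 and 6.90). The 5 of lowest pooled fold were Gm38293 (1.96), Neat1 (2.40), 4933439J24Rik (2.63), Gm44238 (2.70) and Gm11399 (2.74). Of these, Gm38293 had a pooled fold far below its 7.61 in replicate 2. D230017M19Rik, with 4 members, had folds of 11.6 and 10.3 at the strongest, while the strongest region of Ptprv had 6.71 and 7.87 and that of 2610035D17Rik 7.24 and 7.35.

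Members close to the limits of the rule had folds on both sides of the members' median pooled fold of 6.38. Those just inside 1 kb of an lncRNA TSS, at 995 to 1000 bp, were Gm42836 (pooled fold 3.70), Gm16195 (6.96) and Gm26912 (4.41). Regions just outside, at 1001 to 1006 bp, were nearest to Gm26838 (7.04), Gm3764 (4.06) and Gm33940 (8.08). Those just over 1 kb from a protein-coding TSS, at 1002 to 1011 bp, were Gm12454 (10.2), Gm33023 (6.94) and Gm12279 (3.59). Regions left out at 983 to 992 bp from one were Gm36026 (7.47), Gm49150 (4.09) and Gm15983 (7.19).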

How the data were processed

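ATAC-seq peaks of 2 MEP libraries were used. Per the file headers and accompanying text, the deposited lists are narrowPeak files on mm10, and the accompanying text names alignment files as their source and lists unfiltered alignments as separate files. Whether problem regions of the genome were masked is not stated there. The aligner, peak caller, versions, Tn5 offset and treatment of multi-mapping reads: not given in the sources used here. The deposited ratio column is the authors' fold per peak, read from its layout and values as fold over local background, without scaling across libraries. The authors' −log10 p column grows with depth, which is unknown. The deposited score is the −log10 irreproducible discovery rate (IDR).

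Peaks were merged into regions, each with its strongest summit and fold, and set against TSS of GENCODE M21 (54327 protein-coding, 14560 lncRNA). For each library the highest fold of the pseudoreplicated list per region was taken, and recurrence was an overlap of at least 1 bp. Sequence came from RefSeq GRCm38.p6. The motifs reported and those of PU.1, RUNX, KLF, NFY, NRF1, E-box and CRE were searched on both strands within 100 bp of the summit, and near-copies by BLAST 2.17.0 at an e-value of 1e-10. Python 3.11.15, pandas 2.3.3, numpy 2.4.6 and scipy 1.17.1 were used, after the code was tested on simulated data.

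With 1 group of 2 libraries no test between conditions is possible, and regions are not replicates. The members, lists and motifs were chosen with earlier results of these data known, and Mirt1 and Mirt2 were moved between lists afterwards. Named are the listed genes with a member, the 10 highest, 3 widest and 5 lowest members, those nearest to each limit, neighbours of the blood genes, genes with 3 or more members and the strongest 3 of each library without a region in the other. Further genes were named after their values were seen. No member aligned to mitochondrial DNA. Of the markers listed for the check of the cell type, 1 is not reported here.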

Additional observations from a re-analysis of the deposited data

How the results depend on the processing

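The counts depend on how deep the list reaches, since depth is unknown and a promoter without a call need not be closed. Over 14 alternatives 97 values of 8 results were compared, of which 51 stayed within the spread between libraries, the counting interval or 1.5 times the count, and 46 moved. The cause was not tested. No paired analysis was possible because there is 1 group of libraries. Leaving out regions with a near-copy, an alternative chosen after seeing the data, moved no value. Leaving out mitochondrial alignments could move none, as no member aligned to mitochondrial DNA, and its values are among the 51.

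The replicated list gave 1821 members, a share of lncRNA genes of 18.08%, recurrence of 29.49%, a median fold of 5.415, a width of 453 bp and a CpG ratio of 0.3435. The upper 50% of regions by fold gave 515 members, 6.256%, 80.19%, 8.093, 689 bp, 0.3944 and a GATA share of 34.76%. The pooled IDR-thresholded list gave a gene share of 10.98%, recurrence of 53.38%, 594 bp and a CpG ratio of 0.3799. With the list of 1 library alone (without replicate 1 or without replicate 2) there were 634 to 669 members, a gene share of 7.184% to 7.598%, a median fold of 7.359 to 7.434, a width of 588 to 600 bp, a CpG ratio of 0.4102 to 0.4156 and 89.99% to 90.54% of summits within 1 kb.

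A 500 bp window to the TSS gave a gene share of 9.972%, recurrence of 52.2%, 605 bp, a CpG ratio of 0.4155 and 98.46% of summits within 1 kb. A 2 kb window gave 15.22%, 551.5 bp, 0.3333, a GATA share of 42.26% and 64.35% of summits within 1 kb. Distance from the summit gave a gene share of 10.96%, a CpG ratio of 0.3981 and, by construction, 100% of summits within 1 kb. More noncoding gene types gave a gene share of 10.44% and a CpG ratio of 0.3558. A sequence window of 200 bp to either side of the summit gave a CpG ratio of 0.3594 and a GATA share of 52.49%.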

Other observations

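Some listed lncRNA genes known for a role in blood or in growth control had an accessible site that is not among the members, because a protein-coding TSS lies within 1 kb. Tug1, antisense and 86 bp from a protein-coding TSS, had folds of 12.9 in replicate 1 and 11.6 in replicate 2. Flicr had 10.1 and 10.9 and Hotairm1, a lncRNA gene of the Hoxa cluster known from myeloid cells, had 7.89 and 9.33. The small nucleolar RNA hosts Gas5, Snhg1, Snhg3, Snhg9, Snhg10 and Zfas1 had 4.46 to 6.07 in replicate 1 and 4.11 to 6.91 in replicate 2. These values cannot be told apart from those of the coding neighbour.

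Among listed genes without a region in the conservative or the replicated list were the imprinted H19, Rian, Mirg and Snhg14, and Hotair, Hottip, Fendrr and Sox2ot, which are known from embryonic development. Trp53cor1, Snhg18, Lncenc1, Mir124a-1hg and Wt1os had a region in the replicated list only.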
